A study of Mus musculus with 6 samples.

Results

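Chemokine receptors are 7-transmembrane proteins that couple to inhibitory G proteins and steer the movement of leukocytes along gradients of chemokines. The 7 receptors examined here are known from myeloid cells: Ccr1, Ccr2, Ccr3, Ccr7, Ccrl2, Cx3cr1 and Cxcr4. They were chosen by gene symbol and, like the gene lists below, with earlier results of these data known. All 7 were among the 17469 genes with values in the sorted cells. Ccr1 and Ccr2 are receptors of inflammatory chemokines on monocytes and macrophages, and Ccr2 is needed for monocytes to leave the bone marrow. Cx3cr1 binds fractalkine and marks patrolling monocytes, tissue macrophages and microglia, whereas Cxcr4 binds Cxcl12 and retains hematopoietic cells in the marrow. Ccr3 is best known as the eotaxin receptor of eosinophils, Ccr7 guides mature dendritic cells to lymph nodes, and Ccrl2 is an atypical receptor that presents chemerin without signalling itself.

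The study compared tdTomato+ OB progenitors, sorted from BMSC cultures (attached bone marrow cells), of 6-month-old Ocn-Cre;Ai9 mice (control) and TgAPPswe;Ocn-Cre;Ai9 mice (here TgAPPsweOCN), untreated, with 3 libraries of each genotype. Both genotypes carried Ocn-Cre, in which the osteocalcin promoter drives Cre, and Ai9, a reporter that makes tdTomato once Cre has removed its stop cassette. TgAPPsweOCN mice also carried human APP with the Swedish mutation behind such a stop cassette, and both the reporter and the transgene use the CAG promoter. The mouse lines were on a C57BL/6 background. Marrow was taken from femurs and tibias, cultured for 7 days, passaged and cultured for 3 further days before the sort. The measurements on these sorted cells are described as from 3 mice, but which mice gave which library is not given in the sources used here, so p-values measure the spread between these libraries, part of which may be technical. Levels below are FPKM (fragments scaled by transcript length and by all mapped fragments), and tests were made on estimated counts with edgeR's quasi-likelihood test. A gene was called up- or down-regulated if its adjusted p (Benjamini-Hochberg over the 12701 genes tested) did not exceed 0.05 and its log2 fold change (log2FC, TgAPPsweOCN minus control, with its standard error, SE) was 1 or more in size.

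Libraries held 19340810 to 22037840 estimated counts, and 3 counts were taken as the limit of detection. The sorted cells carried abundant macrophage transcripts: the summed FPKM of 12 macrophage markers was 19857 to 21168 in control and 13581 to 17529 in TgAPPsweOCN libraries, against 123 to 127 and 89.1 to 125 for 14 stromal or osteoblast-lineage markers. Bglap, the osteocalcin gene itself, had 2.76 to 10 estimated counts in control and 0 to 4.38 in TgAPPsweOCN libraries. By this estimate Bglap was near the limit of detection. Its counts were not all whole, so some of its reads were divided by estimation and its level is uncertain. In bulk RNA, fewer cells of a type and less RNA per cell cannot be told apart. Replicate 3 of each genotype lay between the other two. Of 384 genes for which control replicates 1 and 2 differed by more than 10 times the counting noise, replicate 3 was intermediate for 89.1%, and of 470 such genes in TgAPPsweOCN for 98.5%. Its median position, counted from replicate 1 at 0 to replicate 2 at 1, was 0.65 in control and 0.52 in TgAPPsweOCN. Replicates 1 and 2 lay between the others for 7.56% to 36.6% of such genes. Results that turn on replicate 3 are therefore given also without both replicate 3 libraries, and the cause of its position was not tested.

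Among the 6 receptors with enough counts for the test, 1 was up-regulated (Ccr3) and 4 were down-regulated (Cxcr4, Cx3cr1, Ccr2 and Ccr1) in TgAPPsweOCN cells. Ccrl2 passed neither threshold, and Ccr7 was too low to be tested. Over all tested genes, 8.90% were up- and 9.20% down-regulated, or 1130 and 1169 genes, and with scaling by library size only these became 846 and 1732. The genotypes thus differed widely, and 64.0% of all tested genes passed the adjusted p alone, as did 5 of the 6 tested receptors. The median log2FC of the tested receptors was -1.42, beside -0.02 over all tested genes. That scaling moved the median of all genes to -0.23, while each tested receptor kept its direction. CPM (counts scaled to normalized library totals) did not overlap between the genotypes for 4 of the 6 tested receptors, against 69.7% of all tested genes. Without both replicate 3 libraries, 1 receptor was up- and 3 were down-regulated, Ccr2 being the one lost.

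**Figure D1:**
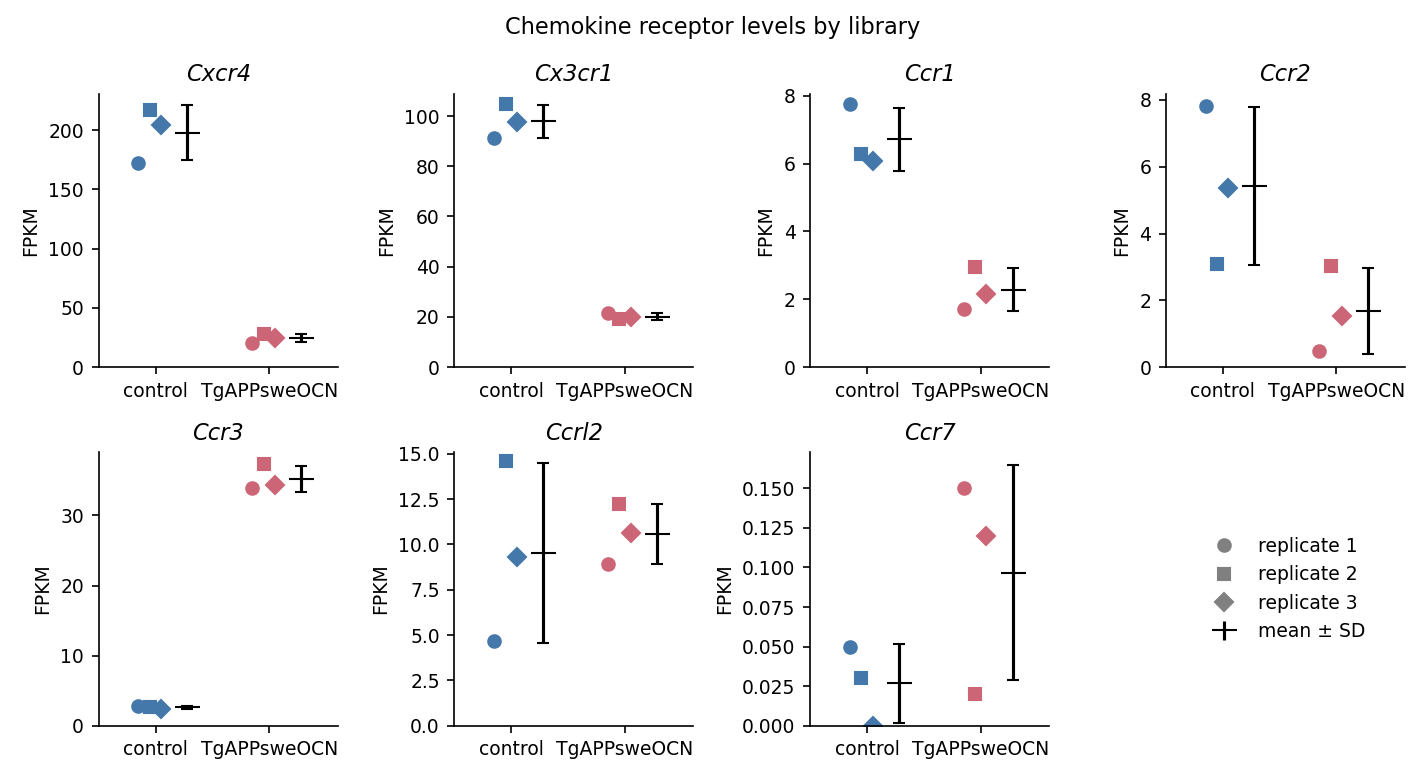
FPKM (vertical axes, each from 0) of the 7 receptors in the 3 control and 3 TgAPPsweOCN libraries, with replicates by symbol and the mean ± SD in black. Cxcr4, Cx3cr1 and Ccr1 were lower in every TgAPPsweOCN library and Ccr3 higher in every one, whereas Ccrl2 and Ccr7 overlapped. The highest TgAPPsweOCN value of Ccr2 (3.03) lay just under its lowest control value (3.10).

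The promoters of the 4 receptors whose CPM did not overlap between the genotypes are shown first, since 1 of these genes rose and 3 fell. The sequences are RefSeq windows of 250 bases before to 50 after a start site on GRCm38.p6, 5′ to 3′ on the strand of the gene, with motif matches in capitals. For Ccr3 the window was chr9:124021721-124022020 (+ strand), and for Ccr1 chr9:123968643-123968942 (- strand). For Cx3cr1 it was chr9:120068247-120068546 (- strand), and for Cxcr4 chr1:128592250-128592549 (- strand).
Ccr3: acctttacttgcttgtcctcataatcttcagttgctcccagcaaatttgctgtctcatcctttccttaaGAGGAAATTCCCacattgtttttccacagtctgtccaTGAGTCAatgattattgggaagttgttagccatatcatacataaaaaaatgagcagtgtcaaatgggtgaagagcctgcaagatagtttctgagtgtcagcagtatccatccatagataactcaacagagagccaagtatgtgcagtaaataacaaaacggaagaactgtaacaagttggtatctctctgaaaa
Ccr1: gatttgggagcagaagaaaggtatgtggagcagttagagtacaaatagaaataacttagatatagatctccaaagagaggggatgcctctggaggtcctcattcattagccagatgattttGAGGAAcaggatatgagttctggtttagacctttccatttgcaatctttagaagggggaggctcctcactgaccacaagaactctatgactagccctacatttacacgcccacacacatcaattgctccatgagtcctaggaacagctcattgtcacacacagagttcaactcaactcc
Cx3cr1: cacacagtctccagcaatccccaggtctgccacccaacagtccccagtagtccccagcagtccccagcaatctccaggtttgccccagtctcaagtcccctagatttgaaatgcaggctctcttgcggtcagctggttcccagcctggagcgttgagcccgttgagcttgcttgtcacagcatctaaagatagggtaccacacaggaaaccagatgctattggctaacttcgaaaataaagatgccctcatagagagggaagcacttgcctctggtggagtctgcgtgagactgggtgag
Cxcr4: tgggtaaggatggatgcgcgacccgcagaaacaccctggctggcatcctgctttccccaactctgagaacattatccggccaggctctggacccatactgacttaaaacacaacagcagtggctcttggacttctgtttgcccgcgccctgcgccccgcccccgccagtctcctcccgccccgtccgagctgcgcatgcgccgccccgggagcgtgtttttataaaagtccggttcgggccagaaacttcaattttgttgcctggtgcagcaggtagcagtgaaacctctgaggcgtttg

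These windows were searched on both strands for GAGGAA (core of the PU.1 motif, a myeloid transcription factor), TGANTCA (AP-1), a kappaB motif (GGG and TTTCC with 2 bases of any kind between) and ACGTG (core of the hypoxia response element). They occurred in 28.3%, 7.81%, 1.63% and 19.6% of 32851 RefSeq promoter windows of the same length. The Ccr3 window held GAGGAA at -181 to -176 from the start site, a kappaB match at -179 to -170 that overlaps it, and an AP-1 match at -144 to -138. The Ccr1 window held only GAGGAA, at -129 to -124. The Cx3cr1 and Cxcr4 windows held none of the 4, nor did that of Ccr2. The 3 Ccrl2 windows overlap and each held the hypoxia core, the same site being counted in both of the windows that start nearest to each other. The start site of the Ccr3 window lies inside the RefSeq span of the gene given further on. A match is a description of the letters and no evidence of binding.

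Ccr3 was the receptor that rose. Its FPKM was 2.79, 2.61 and 2.43 in control replicates 1, 2 and 3 and 33.9, 37.3 and 34.4 in TgAPPsweOCN replicates 1, 2 and 3. The estimated counts were 157, 141 and 140 against 2184, 2332 and 2166. Every TgAPPsweOCN library stood far above every control library, and within a genotype the libraries were close: the coefficient of variation of CPM was 6.76% in control and 2.59% in TgAPPsweOCN, near the 8.28% and 2.12% that counting alone gives. Mean FPKM went from 2.61 ± 0.18 (SD, n = 3) to 35.2 ± 1.85, a 15.8-fold rise by edgeR (log2FC 3.99, SE 0.07, adjusted p = 7.66e-09). Ccr3 is a receptor of eosinophils and basophils, whose markers were low in these libraries. The 1 tested eosinophil marker and the 1 tested mast cell or basophil marker were up-regulated, as were 8.90% of all tested genes. Of 6 eosinophil markers 4 had values, where Epx had 0 or 1 count in every library, Prg2 0 to 5 and Il5ra 0 to 3.81. Siglecf, the one that could be tested, had 24 to 42 counts in control and 60 to 72 in TgAPPsweOCN libraries (log2FC 1.01, adjusted p = 0.0047, edgeR). It was not up-regulated when both replicate 3 libraries were left out. Of the mast cell and basophil markers, Cpa3, Ms4a2 and Cma1 had 0 or 1 count in every library and Mcpt8 5 to 14, while Hdc, a histidine decarboxylase, was up-regulated (log2FC 2.23, adjusted p = 0.00107, edgeR) at 5 to 12 counts in control and 24 to 41 in TgAPPsweOCN libraries. The summed FPKM was 0.54 to 1.25 in control and 1.14 to 1.65 in TgAPPsweOCN libraries for the eosinophil markers, and 0.77 to 1.01 and 1.06 to 1.39 for the mast cell and basophil markers. The part of these markers in the Ccr3 result was not tested.

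Cxcr4 fell most. Control replicates 1, 2 and 3 had an FPKM of 173, 217 and 204, and TgAPPsweOCN replicates 20.7, 27.8 and 24.7. The lowest control library exceeded the highest TgAPPsweOCN library several times over. On the count scale 5906, 7518 and 6895 stood against 798, 1065 and 933, a 6.99-fold fall (log2FC -2.81, SE 0.12, adjusted p = 3.24e-07, edgeR). The gene lies on chromosome 1 (GRCm38, 128588199 to 128592299, minus strand), the only one of the 7 there.

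Cx3cr1 fell as a second abundant receptor. Its FPKM was 91.4, 104.7 and 97.5 in control and 21.5, 19.1 and 19.9 in TgAPPsweOCN replicates 1, 2 and 3. The libraries of a genotype agreed closely and the genotypes did not overlap. Estimated counts of 6536, 7459 and 6761 went to 1718, 1530 and 1554, a 4.15-fold fall (log2FC -2.05, SE 0.08, adjusted p = 1.85e-07, edgeR). Cx3cr1 lies on chromosome 9 (120048683 to 120068296, minus strand).

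Ccr1 fell from a lower level. Control replicates 1, 2 and 3 had an FPKM of 7.76, 6.28 and 6.09 and TgAPPsweOCN replicates 1.71, 2.96 and 2.17, or 421, 344 and 326 against 104, 179 and 130 estimated counts. No TgAPPsweOCN library reached a control library. The fall was 2.54-fold (log2FC -1.35, SE 0.18, adjusted p = 0.000253, edgeR).

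Ccr2 was lower in TgAPPsweOCN cells on average, but its libraries varied widely, and the genotypes overlapped in counts and CPM though not in FPKM. The FPKM was 7.82, 3.10 and 5.36 in control and 0.47, 3.03 and 1.53 in TgAPPsweOCN replicates 1, 2 and 3, so replicates 2 of both genotypes were nearly level. On the scale of estimated counts, TgAPPsweOCN replicate 2 (236) exceeded control replicate 2 (221), while the remaining control values were 544 and 366 and the remaining TgAPPsweOCN values 36.2 and 119. The coefficient of variation of CPM was 43.4% in control and 75.8% in TgAPPsweOCN, where counting gives 5.15% and 8.76%. The log2FC was -1.48 (SE 0.53, adjusted p = 0.0369, edgeR). It was no longer called without control replicate 1 (-1.13, adjusted p = 0.123), control replicate 3 (-1.51, adjusted p = 0.0827) or TgAPPsweOCN replicate 3 (-1.43, adjusted p = 0.106), nor without both replicate 3 libraries (-1.45, adjusted p = 0.192). It stayed called without control replicate 2 (-1.76, adjusted p = 0.0225), TgAPPsweOCN replicate 1 (-1.04, adjusted p = 0.0485) or TgAPPsweOCN replicate 2 (-2.21, adjusted p = 0.00451). DESeq2 gave -1.48 with an adjusted p of 0.0862.

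Monocyte markers moved with Ccr2 between the libraries of a genotype. Ccr2 was highest in replicate 1, then 3, then 2 among control libraries, and highest in replicate 2, then 3, then 1 among TgAPPsweOCN libraries. The 6 monocyte markers (Ly6c2, F13a1, Chil3, Plac8, Vcan and Hp) all had this order in both genotypes, as had 5 of 7 tested neutrophil markers and 1 of 12 macrophage markers, against 6.6% of all tested genes. F13a1, a transglutaminase subunit of monocytes, had 3473, 1409 and 2337 counts in control and 337, 777 and 504 in TgAPPsweOCN replicates 1, 2 and 3, so it fell between the genotypes as well (log2FC -2.11, adjusted p = 0.000971, edgeR). Ly6c2, the antigen of inflammatory monocytes, had 115, 38.4 and 79.4 counts in control and 52.9, 232 and 111 in TgAPPsweOCN libraries (log2FC 0.82, adjusted p = 0.21). The summed FPKM of the monocyte markers was 33.2 to 82.6 in control and 57.2 to 104 in TgAPPsweOCN libraries, and none of the 6 was at 0. Of the 6, 1 was up-regulated (Hp) and 1 down-regulated (F13a1), also without both replicate 3 libraries. Over all tested genes 8.90% were up- and 9.20% down-regulated. The part of these markers in the Ccr2 result was not tested.

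**Figure D2:**
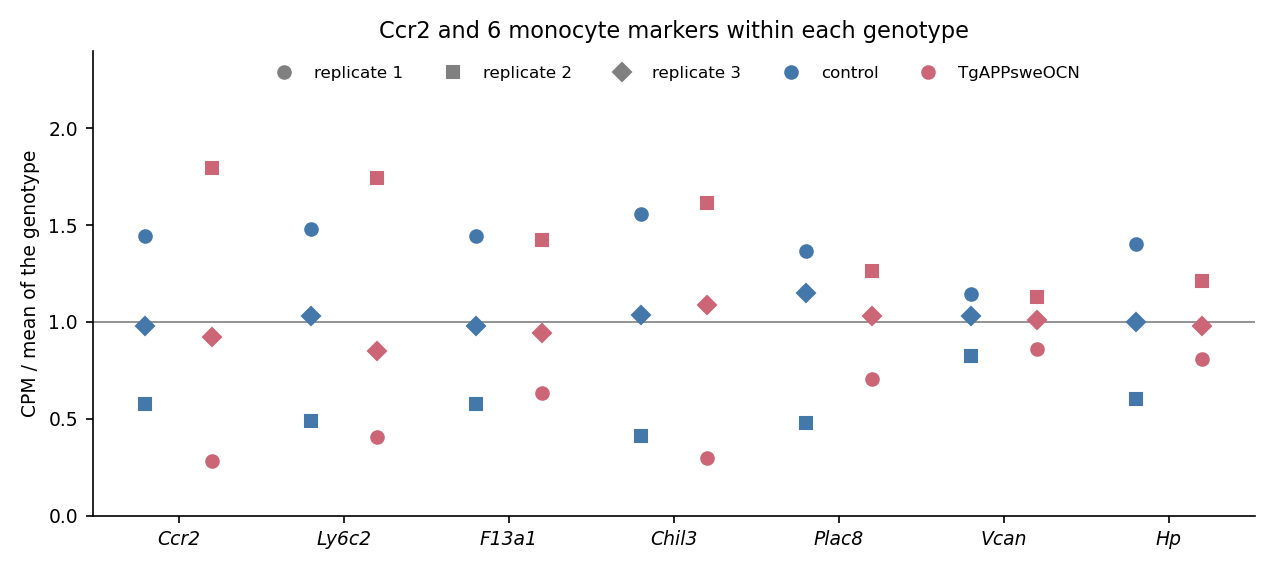
CPM of Ccr2 and 6 monocyte markers (horizontal axis), each divided by its mean over the 3 libraries of the genotype (vertical axis, no unit). For every gene control replicate 1 and TgAPPsweOCN replicate 2 were highest, and replicate 3 lay between the others in both genotypes, for Ccr2 at 0.978 of the mean in control and 0.924 in TgAPPsweOCN.

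The estimated counts of Ccr2 were also fractional in every library, which those of the other 6 receptors were not in any, so some of its reads were divided by estimation and its split of reads is uncertain.

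Ccrl2 passed neither threshold. Its FPKM was 4.69, 14.6 and 9.33 in control and 8.90, 12.2 and 10.6 in TgAPPsweOCN replicates 1, 2 and 3, with estimated counts of 163, 550 and 337 against 366, 501 and 434. The TgAPPsweOCN libraries all lay within the range of the control libraries, whose coefficient of variation was 54.5%, against 14.1% in TgAPPsweOCN. The log2FC was 0.37 (SE 0.34, adjusted p = 0.376, edgeR). It was 0.02 without control replicate 1 (adjusted p = 0.947) and 0.84 without control replicate 2 (adjusted p = 0.0307), so single control libraries decided its value. Ccrl2 lies on chromosome 9 (111054834 to 111057518, minus strand), 12.1 kb from Ltf, the lactoferrin gene of neutrophil granules, which had 115, 28 and 45 counts in control and 17, 132 and 69 in TgAPPsweOCN libraries.

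Ccr7 was at the limit of detection. It had 2, 1 and 0 counts in control and 6, 1 and 5 in TgAPPsweOCN replicates 1, 2 and 3, or an FPKM of at most 0.15. The genotypes overlapped, and a difference was not detectable at this depth. The RefSeq promoter table has no entry matched to it. Its gene lies on chromosome 11 (99144199 to 99155077, minus strand). Of 8 dendritic cell markers, Cd209a had 0 to 2 counts, Clec9a 2 to 11, and Flt3 4 to 6 in control and 7 to 27 in TgAPPsweOCN libraries. Of the 5 tested, Fscn1 and Batf3 were up-regulated and Cd83 was down-regulated, where 8.90% and 9.20% of all tested genes were called. Itgax (log2FC -0.97, adjusted p = 0.0507, edgeR) and Zbtb46 (0.05, adjusted p = 0.936) passed neither threshold. The summed FPKM of the 8 was 54.6 to 82.2 in control and 64.4 to 77.4 in TgAPPsweOCN libraries.

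The order of the receptors differed between the genotypes. By mean FPKM the control order was Cxcr4 (198), Cx3cr1 (97.9), Ccrl2 (9.54), Ccr1 (6.71), Ccr2 (5.43), Ccr3 (2.61) and Ccr7 (0.027), with overlapping libraries between Ccrl2 and Ccr1 and between Ccr1 and Ccr2. In TgAPPsweOCN cells it was Ccr3 (35.2), Cxcr4 (24.4), Cx3cr1 (20.2), Ccrl2 (10.6), Ccr1 (2.28), Ccr2 (1.68) and Ccr7 (0.097), with overlap between Cxcr4 and Cx3cr1 and between Ccr1 and Ccr2. Ccr3 thus moved from sixth to first place. The summed FPKM of the 7 receptors was 320 ± 31.0 (SD, n = 3) in control and 94.4 ± 7.62 in TgAPPsweOCN libraries. Cxcr4 made up 61.8% ± 1.44 of that sum in control and 25.8% ± 1.81 in TgAPPsweOCN, and Ccr3 0.823% ± 0.129 and 37.3% ± 1.29. Ccrl2, whose level was not shown to differ, made up 2.9% ± 1.28 in control and 11.2% ± 0.886 in TgAPPsweOCN.

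**Figure D3:**
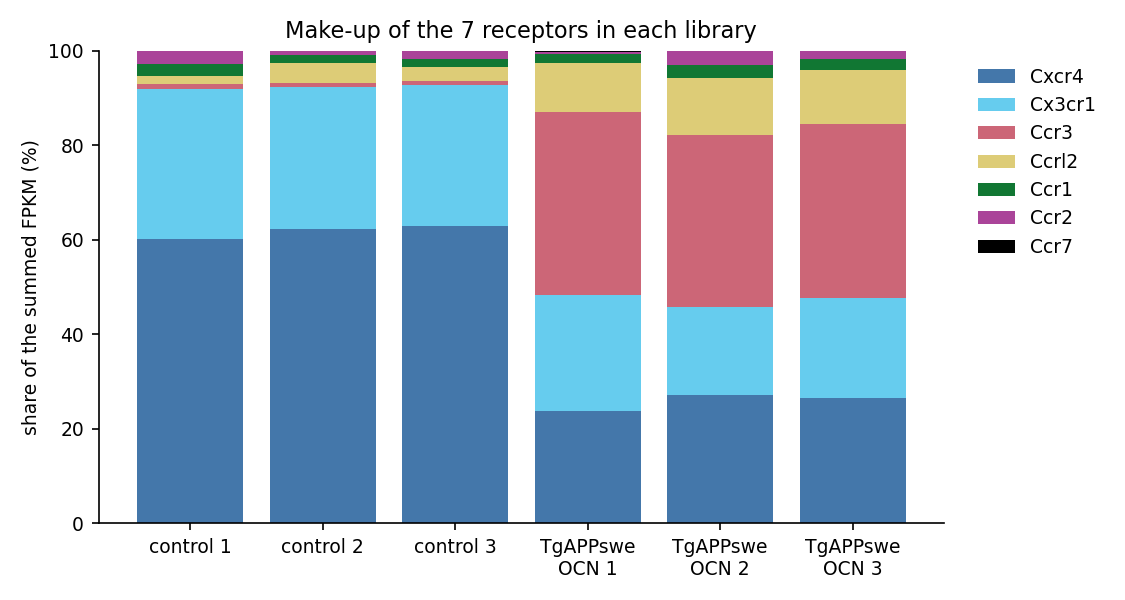
Share of each receptor in the summed FPKM of the 7 receptors (vertical axis, percent) in the 6 libraries (horizontal axis). Cxcr4 filled 60.1% to 62.8% of each control bar, and Ccr3 36.4% to 38.8% of each TgAPPsweOCN bar.

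Several receptor genes lie close together on chromosome 9 (GRCm38): Ccr1 (123962126 to 123968692, minus strand), Ccr1l1, Ccr3 (124017825 to 124031692, plus strand), and Ccr2 (124101918 to 124109140, plus strand). Ccr3, 49.1 kb from Ccr1 and 70.2 kb from Ccr2, rose while both of those were down-regulated. Ccr1l1, a Ccr1-like gene 7.7 kb from Ccr1, had 14, 12 and 11 counts in control and 15, 22 and 29 in TgAPPsweOCN libraries (log2FC 0.88, adjusted p = 0.0419, edgeR), under the fold change threshold. On the other side of Ccr1, at 100.1 kb, Xcr1, the receptor of cross-presenting dendritic cells, was up-regulated at low counts of 12.2 to 13.1 in control and 41.6 to 48.0 in TgAPPsweOCN libraries (log2FC 1.88, adjusted p = 0.000133). Cxcr6 beyond it had 5 to 15 counts in every library and was not tested. Next to Cx3cr1, Slc25a38 had a log2FC of 0.16 (adjusted p = 0.0728), and Xirp1 on its other side had 1 to 6 counts. Lrrfip2, next to Ccrl2, had 0.12 (adjusted p = 0.106). Beside Cxcr4, Dars had 0.36 (adjusted p = 0.00128) and Thsd7b 0 to 2 counts. Beside Ccr7, Tns4 was up-regulated (log2FC 1.08, adjusted p = 0.0139) and Smarce1 had 0.55 (adjusted p = 0.00025).

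**Figure D4:**
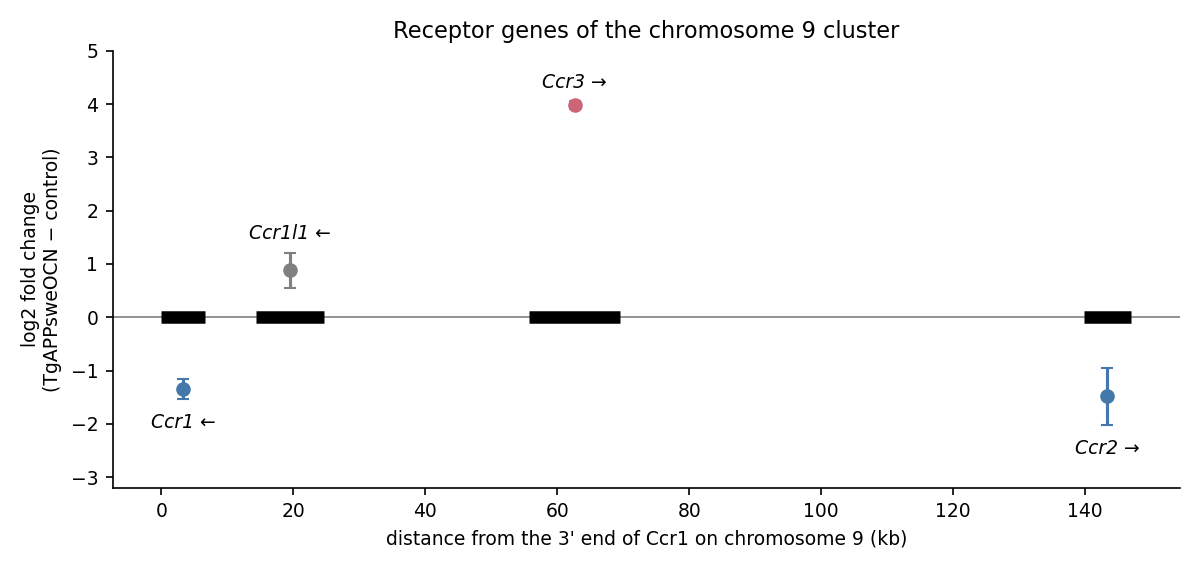
Log2FC (TgAPPsweOCN minus control, vertical axis, points with the SE) of 4 receptor genes against their distance in kb along chromosome 9 (horizontal axis). Black bars are the genes and arrows their strand, red is up-regulated, blue down-regulated and grey neither. Ccr3 at 3.99 stood between Ccr1 at -1.35 and Ccr2 at -1.48.

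A list of further receptors of chemokines and chemerin had 17 genes with values, of which 7 could be tested, with 1 up- and 2 down-regulated and a median log2FC of -0.19, where 8.90% and 9.20% of all tested genes were called. Leaving out both replicate 3 libraries gave 1 and 2 as well. Cxcr3, the receptor of interferon-induced chemokines, fell from an FPKM of 6.25 ± 0.397 (SD, n = 3) to 1.34 ± 0.266 (log2FC -2.01, adjusted p = 1.32e-05, edgeR). Cmklr1, the signalling receptor of chemerin, fell from 12.5 ± 3.56 to 5.03 ± 0.881 (log2FC -1.17, adjusted p = 0.00119). Ccr10, a receptor of skin-homing lymphocytes, went from 0.577 ± 0.169 to 0.247 ± 0.0737, just under the fold change threshold (log2FC -0.99, adjusted p = 0.0401). Cxcr2, the neutrophil receptor, had a log2FC of -0.08 (adjusted p = 0.789), and the scavenger Ackr4 -0.19 (adjusted p = 0.415). The 10 others, among them the lymphocyte receptors Ccr4, Ccr6, Ccr9 and Cxcr5, were too low to be tested.

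Of 13 ligands of the 7 receptors with values, 11 could be tested. Of these 6 were up- and 1 down-regulated, against 8.90% and 9.20% of all tested genes, and the median log2FC was 2.17, beside -0.02 over all tested genes. Both counts were the same without both replicate 3 libraries. For Ccr2, which fell on average, its 3 ligands rose: Ccl2 from an FPKM of 46.3 ± 6.49 to 248 ± 19.6 (log2FC 2.64, adjusted p = 3.8e-07, edgeR), Ccl7 from 18.4 ± 3.01 to 167 ± 7.89 (3.39, adjusted p = 1.33e-07) and Ccl12 from 8.77 ± 2.76 to 80.5 ± 12.6 (3.41, adjusted p = 1.52e-06). For Ccr1, Ccl3 rose from 191 ± 17.8 to 1346 ± 240 (3.04, adjusted p = 6.78e-07). Ccl5, which binds Ccr1 and Ccr3, rose from 120 ± 59.5 to 1177 ± 98.8 (3.51, adjusted p = 1.88e-05). The Ccr1 ligands Ccl6 (-0.70, adjusted p = 0.000382) and Ccl9 (0.53, adjusted p = 0.0197) stayed under the fold change threshold in opposite directions.

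For Ccr3, the eotaxins were scarce. Ccl11 had 1, 1 and 0 counts in control and 0 in every TgAPPsweOCN library, and Ccl24 had 28, 21 and 23 against 4, 1 and 0 (log2FC -3.70, SE 0.60, adjusted p = 0.000722, edgeR). So Ccr3 rose with its shared ligands Ccl5 and Ccl7, while its selective ligand Ccl24 fell. Cx3cl1, the single ligand of Cx3cr1, had 172, 157 and 140 counts in control and 285, 185 and 205 in TgAPPsweOCN libraries (0.58, adjusted p = 0.0192). Cxcl12, the ligand of Cxcr4 from marrow stroma, had 1810, 996 and 1366 against 1319, 3167 and 2170 (0.72, adjusted p = 0.0643), with overlapping genotypes. Rarres2, the chemerin gene, was up-regulated at low counts, 5, 5 and 4.06 against 11, 30 and 21 (2.17, adjusted p = 0.00314). The Ccr7 ligand Ccl19 had 0 counts in control and 1, 4 and 0 in TgAPPsweOCN libraries.

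**Figure D5:**
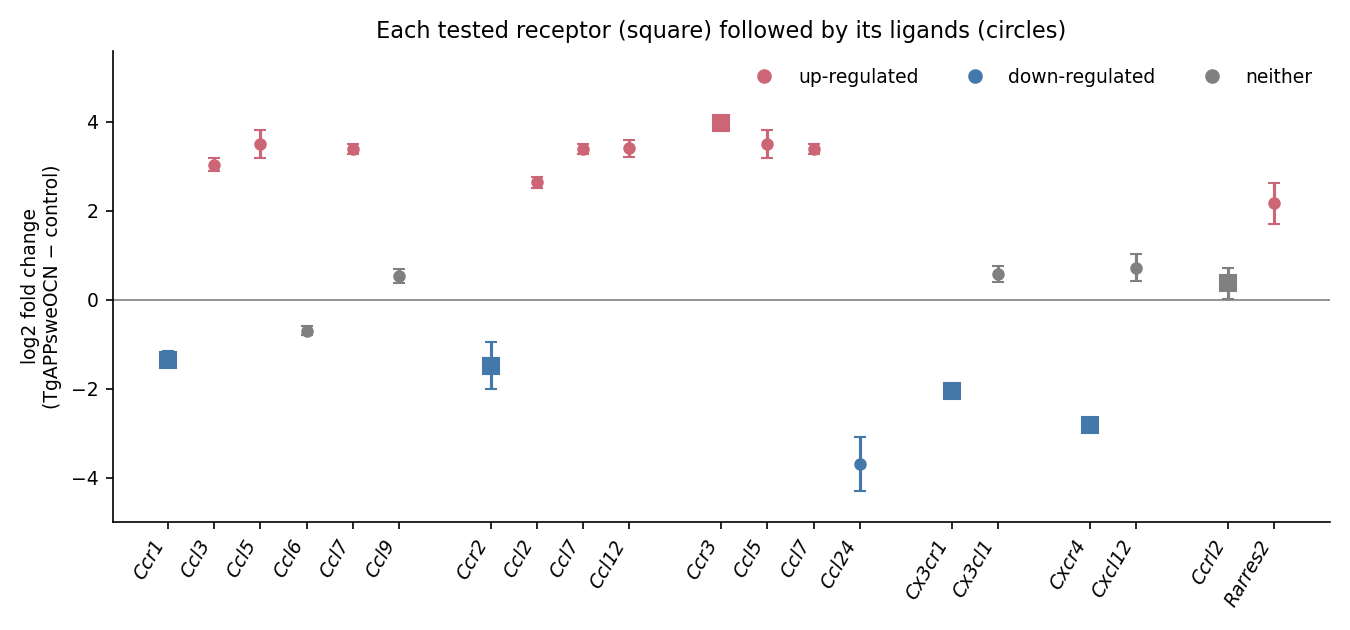
Log2FC (TgAPPsweOCN minus control, vertical axis, with the SE) of each tested receptor (squares) and, to its right, of its tested ligands (circles). Red is up-regulated, blue down-regulated and grey neither, and Ccl5 and Ccl7 appear under each receptor they bind. The ligands Ccl2, Ccl7 and Ccl12 of Ccr2 lay between 2.64 and 3.41, above the receptor at -1.48.

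All 35 genes that carry or limit the signal of such receptors could be tested, with 6 up- and 3 down-regulated, a median log2FC of 0.26, and 30 past the adjusted p alone. Over all tested genes 8.90% were up- and 9.20% down-regulated and 64.0% passed the adjusted p alone, so the share that fell was near that of all genes. The 3 that fell were regulators of G protein signalling, which shorten the signal: Rgs2 (log2FC -2.59, adjusted p = 7.14e-07, edgeR), Rgs10 (-2.05, adjusted p = 1.38e-07) and Rgs1 (-1.37, adjusted p = 0.00322). Leaving out both replicate 3 libraries left 2 of them down-regulated, Rgs2 and Rgs10. The 4 remaining tested Rgs genes were not called. Those that rose were Rac2, the hematopoietic small GTPase of chemotaxis (3.03, adjusted p = 6.63e-08), Pik3r5 and Pik3cg, the subunits of phosphoinositide 3-kinase gamma (1.75 and 1.28), the receptor kinase Grk5 (1.72), the G protein subunit Gnb1 (1.25) and the exchange factor Vav1 (1.2). Gnai2, the main inhibitory G protein alpha subunit of leukocytes, had a log2FC of 0.00 (adjusted p = 0.982) at 34623 to 37361 counts in control and 33385 to 35551 in TgAPPsweOCN libraries.

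Markers of further cells were listed beside the receptors, and their counts stand against 8.90% up- and 9.20% down-regulated among all tested genes. Among 12 macrophage markers, 4 were up-regulated (Adgre1, Itgam, Fcgr1 and Aif1) and 4 down-regulated (Csf1r, Cd68, Mrc1 and Mertk), with a median log2FC of -0.30 and none at 0. Csf1r, the receptor for the macrophage growth factor, had a log2FC of -1.49 (adjusted p = 1.21e-06, edgeR), and Adgre1, which encodes F4/80, had 1.89 (adjusted p = 4.9e-06). C1qa (-0.44, adjusted p = 0.000675) and C1qb (-0.54, adjusted p = 0.000136) passed the adjusted p alone, and Lyz2 and Cd14 did not pass it. Among 6 tested osteoclast markers 3 were up-regulated, Mmp9 (6.23), Acp5 (3.12) and Ocstamp (0 or 1 count in control and 30 to 54 in TgAPPsweOCN libraries), and Atp6v0d2 was down-regulated (-2.38). Ctsk was lower but under the fold change threshold (-0.36, adjusted p = 0.0372, edgeR), and Dcstamp passed neither threshold (-0.77, adjusted p = 0.0973). The summed osteoclast FPKM was 37.1 to 58.6 in control and 104 to 226 in TgAPPsweOCN libraries, and Calcr had at most 1 count. Of these sums Mmp9 alone made up 1.31 to 2.74 in control and 69.3 to 169 in TgAPPsweOCN libraries. Of 7 tested neutrophil markers 1 was up-regulated (Camp), and the summed FPKM of all 9 overlapped between the genotypes (53.1 to 105 and 69.7 to 94.1), with Ly6g and Retnlg at 0 or 1 count. The lymphocyte markers Cd3d, Cd3e and Cd79a had at most 2 counts in any library, while Cd79b was up-regulated. Endothelial markers summed to an FPKM of 3.86 to 5.92 in control and 5.12 to 6.07 in TgAPPsweOCN libraries, with 1 of 4 tested up-regulated (Pecam1) and none without both replicate 3 libraries, where its log2FC fell just short of the threshold. Kdr, an endothelial growth factor receptor, had a log2FC of -0.97 (adjusted p = 0.00113, edgeR), just under the fold change threshold. Of 12 tested stromal markers 2 were up-regulated, Dcn (13 to 22 counts in control and 51 to 406 in TgAPPsweOCN libraries) and Lum (0 or 1 count and 28 to 38), and none was down-regulated. Sp7 (-0.78, adjusted p = 0.00707), Pdgfrb (-0.55, adjusted p = 0.00282) and Alpl (0.57, adjusted p = 0.00139) passed the adjusted p alone, and 7 of the 12 did not pass it. The part of these cell markers in the receptor results was not tested.

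The genes most like each called receptor were sought by the root mean square difference of log2 CPM profiles over the 6 libraries, each centred on its own mean. They describe these libraries only. For Ccr3 they were Tmtc4 (difference 0.067), Slamf9 (0.084) and Ptprm (0.091), with log2FC values of 4.07, 3.84 and 3.90. For Cx3cr1 they were Dpep2 (0.056), Slc40a1, the iron exporter ferroportin (0.058), and Cd300lb (0.059). For Cxcr4 they were St8sia4 (0.081), Rasgrp3 (0.095) and Chn2 (0.108), and for Ccr1 Gbp8 (0.070), Tjp3 (0.073) and Gbx2 (0.105). The nearest profiles to Ccr2 were farther off, at 0.357 for Rab44, 0.374 for Lrrc71 and 0.409 for Ggnbp1.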

How the data were processed

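RNA-seq was measured in 3 control and 3 TgAPPsweOCN libraries. The authors sequenced on a DNBSEQ platform and removed rRNA, adaptor and low-quality reads. Per the submitters' processing notes, HISAT2 2.0.4, Bowtie2 2.2.5 and RSEM 1.2.12 were used with build mm10, and the annotation is not given in the sources used here. Per the methods, samples qualified at a low RNA integrity threshold. The authors deposited estimated counts (not all whole) and FPKM rounded to 2 decimals for 17469 genes. A further table, with the authors' own log2 ratios and p-values, was not used.

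Estimated counts were rounded and compared in edgeR 4.0.16 (R 4.3.3; filterByExpr, TMM, quasi-likelihood test, genotype only, Benjamini-Hochberg adjustment over all tested genes). The test had been planned for raw counts. The standard error was the log2 fold change divided by the square root of F. With 19340810 to 22037840 estimated counts per library, 3 counts correspond to 0.141 to 0.150 CPM, which covers counting error only. The biological coefficient of variation was 9.85%. The procedure was tested on simulated data. Alternatives were DESeq2 1.42.0, RLE size factors, library size only, no filter beyond 1 count, at least 10 counts in every library, a replicate block, limma 3.58.1 on log2(FPKM + 1) and log2(FPKM + 0.1) for genes with a mean FPKM of at least 0.1, no fold change threshold, and each library left out in turn. Leaving out both replicate 3 libraries was chosen after seeing the data.

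The receptors and gene lists were chosen with earlier results of these data known. The text names the 7 receptors, other receptors with a mean FPKM of at least 0.5 in either genotype, their ligands, up to 10 called signalling partners with the largest change, genes next to the receptors, cell type markers by list, and the 3 genes nearest in profile to each called receptor. Gnai2 was named after its values were seen. A few genes under this rule are not reported here. Positions and promoters came from RefSeq GRCm38.p6 and GENCODE M21, the build of the files. RefSeq promoters were matched for 6 of the 7 receptors. Python 3.11.15 and matplotlib 3.10.9 were used for tables and plots.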

Additional observations from a re-analysis of the deposited data

How the results depend on the processing

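Ccr1, Ccr3, Cx3cr1 and Cxcr4 kept their direction and stayed past both thresholds in all 15 alternatives. Ccrl2 kept its direction and was called in none of them, though it passed the adjusted p alone without control replicate 2. Ccr3 ranged from 3.33 to 4.04 on the log2 scale, Cxcr4 from -3.02 to -2.71, Cx3cr1 from -2.27 to -2.01, Ccr1 from -1.56 to -1.19 and Ccrl2 from 0.02 to 0.84. Ccr2 kept its direction in all 15 but was no longer called in 6: with DESeq2 (-1.48), with the replicate block (-1.55, adjusted p = 0.0854), without both replicate 3 libraries (-1.45) and in 3 of the fits that left out 1 library, which ranged from -2.21 to -1.04. The cause was not tested, except that the fits without libraries have fewer samples. The count of up-regulated receptors was 1 throughout, and that of down-regulated receptors 3 or 4. Genes that were up-regulated numbered 593 with limma on log2(FPKM + 1), against 1130, and without the fold change threshold 4122 rose and 4007 fell. Whether same-numbered libraries were paired is not given in the sources used here, and the main test treated them as unpaired. The correlations of their deviations from the genotype means were 0.013, 0.0066 and 0.141, and not every library correlated best with its own number. With so few libraries these correlations cannot decide whether there was a pairing. The replicate block gave 1115 up- and 1147 down-regulated genes and changed no call of another receptor. Ccr7 had no value, since its counts were too low for the test. Depth limits Ccr7 and the eotaxin genes, at 0 to 28 counts.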
